A study of Rattus norvegicus with 5 samples.

Results

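Cholesterol and fatty acid synthesis was followed through 29 genes, the enzymes that build cholesterol from acetyl-CoA, those that build long-chain fatty acids, and the regulators that switch both on. A gene was taken as measured where a probe set was annotated with its symbol and no other, and the brightest such probe set by mean deposited intensity stood for the gene. This gave 27 of the 29 genes, among 14506 genes named in the same way on the array. Hmgcs1, which makes the substrate of the mevalonate pathway, is unnamed here, and the probe set of Srebf1 also carried the symbol Pemt and was left out. Of the 27 genes, 24 had a mean above that of the median probe set, the exceptions being Pmvk, Stard4 and Scd.

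Proximal tubular cells line the nephron segment that reclaims most of the filtrate, and here they were isolated from the kidney of Sprague-Dawley rats whose phenotype was type I diabetes. Cells of 3 animals were treated for 2 h with C-peptide, the piece of proinsulin removed as insulin matures, and cells of 2 animals were untreated. Every array came from a diabetic rat, so none shows healthy cells, and the sources used here do not give the age of the animals, the way diabetes was induced or the dose of C-peptide. The labels number the animals within each group without stating whether a number marks the same rat in both. Each p-value sets a difference between groups against the spread between arrays of a group. The limma test used here estimates that spread from these few arrays, moderated by all probe sets in the fit.

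In this pathway the mevalonate enzymes make isoprenoid units, squalene is formed and closed to lanosterol, and a further set of enzymes trims lanosterol to cholesterol. Fatty acid synthase works on malonyl-CoA and is followed by elongases and desaturases. The transcription factors encoded by Srebf1 and Srebf2 drive both branches. When membrane sterol is low, Scap escorts them to the Golgi for cleavage, and when it is high the Insig proteins hold Scap back. In the kidney the proximal tubule consumes fatty acids as its main fuel, and in diabetic kidneys lipid accumulation has been linked to the sterol regulatory factors.

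The 5 arrays held 29215 probe-set intensities each, with array medians from 60.1 to 95.9 in the values as deposited, and were brought to the same distribution by quantile normalisation before the comparison. Intensities below are the normalised values, differences are in log2 units of intensity plus 16 (C-peptide minus untreated), and each carries a standard error from limma. On this scale the median difference was 0.02 over all probe sets and 0.03 over all genes, against -0.13 over all probe sets before normalisation. No probe set passed Benjamini-Hochberg adjusted p 0.05 in limma (0% of 29215), and none of the 27 genes did, while 5.06% of probe sets were higher and 6.3% lower at unadjusted p 0.05, with 4 of the 27 genes among the higher. Across probe sets, which are not independent, log2 values correlated with r of 0.970 to 0.982 between arrays of a group and of 0.958 to 0.982 between arrays of different groups. All 14 markers of the proximal tubule gave intensities above 0 on every array, and so did the 11 measured markers of endothelial cells. The same held for the markers of the adrenal cortex, and the whole deposited table held only 550 values of 0. An intensity above 0 therefore does not show that a cell type was present.

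The largest difference among the 27 genes was that of Dhcr7, the reductase of the last step to cholesterol. Msmo1, the methyl sterol oxidase, stood with it among the 4 genes past unadjusted p 0.05, and the promoter windows of these 2 are shown as those of the enzymes that differed most in the last stretch of the pathway. Windows run from 250 bases before to 50 after the annotated start, on the strand of the gene, and come from RefSeq on build GRCr8. That of Dhcr7 lies at chr1:208444184-208444483 on the plus strand and that of Msmo1 at chr16:29746863-29747162 on the plus strand. Srebf2, at chr7:115543057-115543356 on the plus strand, is set beside them as the gene of the pathway's main transcription factor. Capitals mark matches on either strand to the letters TCACNCCAC of a sterol regulatory element, CCAAT of an NF-Y box, GGGCGG of a GC box or CACGTG of an E-box, and matches that overlap run together.
Dhcr7: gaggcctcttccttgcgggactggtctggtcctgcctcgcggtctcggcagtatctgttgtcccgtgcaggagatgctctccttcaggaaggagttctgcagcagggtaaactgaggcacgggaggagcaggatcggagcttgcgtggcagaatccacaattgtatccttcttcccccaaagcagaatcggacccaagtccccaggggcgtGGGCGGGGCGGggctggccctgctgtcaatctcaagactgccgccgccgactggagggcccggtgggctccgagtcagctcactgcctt
Msmo1: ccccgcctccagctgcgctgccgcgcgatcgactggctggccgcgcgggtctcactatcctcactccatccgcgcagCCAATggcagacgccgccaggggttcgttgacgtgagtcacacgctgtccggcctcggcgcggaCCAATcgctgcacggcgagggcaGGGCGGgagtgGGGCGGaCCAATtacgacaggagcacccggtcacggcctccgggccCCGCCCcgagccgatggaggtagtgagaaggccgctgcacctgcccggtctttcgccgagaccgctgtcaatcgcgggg
Srebf2: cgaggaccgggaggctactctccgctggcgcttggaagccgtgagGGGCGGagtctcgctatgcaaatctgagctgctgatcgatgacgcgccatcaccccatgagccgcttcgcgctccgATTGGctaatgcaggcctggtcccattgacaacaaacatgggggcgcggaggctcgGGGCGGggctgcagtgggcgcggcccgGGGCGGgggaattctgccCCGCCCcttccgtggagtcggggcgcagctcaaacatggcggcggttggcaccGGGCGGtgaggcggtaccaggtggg

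The Dhcr7 window held 2 overlapping GC boxes and none of the other motifs. The Msmo1 window held 3 CCAAT matches and 3 GC boxes, and that of Srebf2 held 1 CCAAT match and 5 GC boxes. Of the 27 measured genes 20 had a single window by symbol, and 15 of these 20 (75%) held CCAAT, against 37.5% of all 33469 windows and 38.0% of the 21851 of protein-coding genes. GC boxes were in 16 of the 20 (80.0%), against 33.1% of all windows and 41.8% of protein-coding ones. E-boxes were in 3 of the 20, those of Insig1, Sc5d and Scap (15%, against 6.42% and 7.02%). TCACNCCAC was in none of the 20 and in 1.12% of all windows, which says only that these letters are not within these 300 bases.

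Enzymes of the cholesterol branch lay mostly on the higher side of 0 after C-peptide. Of the 17 measured, 16 had a difference above 0 and Pmvk below, where 54.9% of all genes lay above 0. With the values as deposited, taken relative to the median probe set, Mvk also lay below 0. The median of the 17 was 0.26 (0.19 as deposited and relative to the median probe set), and 3 of them, Dhcr7, Sqle and Msmo1, were higher at unadjusted p 0.05. The 17 genes stood highest on a C-peptide array in 16 cases and lowest on an untreated array in 14, where all genes did so in 64.5% and 43.1% of cases. No p-value is given for these counts, since genes on the same arrays are not independent and the list was chosen with results known.

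Dhcr7 had a normalised intensity of 317 in C-peptide animal 1, 199 in animal 2 and 265 in animal 3, and of 124 in untreated animal 1 and 119 in untreated animal 2, and values below keep this order. The 3 C-peptide arrays all lay above both untreated arrays, which were close to each other, while C-peptide animal 2 was the lowest of the treated. The mean was 260.2 ± 59.2 (SD, n = 3) against 122 ± 3.71 (SD, n = 2), and the log2 difference was 0.98 ± 0.20 (SE), a 1.97-fold higher intensity. In limma the unadjusted p was 0.00163 and the adjusted p 0.152, with a 95% interval of the difference from 0.51 to 1.45. The adjusted p was 0.0341 when the fit held only probe sets brighter than the median. With only probe sets of 1 symbol it was 0.0345, and over gene means 0.0310. Each of these settings tests fewer features, and the fit was redone on them. The unadjusted p in limma was also smaller there, at 0.000587, 0.000495 and 0.000428. Which change moved the adjusted p was not tested, and whether Dhcr7 passed depended on the setting. It was also the only one of the 27 whose 3 treated arrays all exceeded both untreated arrays in the values as deposited.

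**Figure D1:**
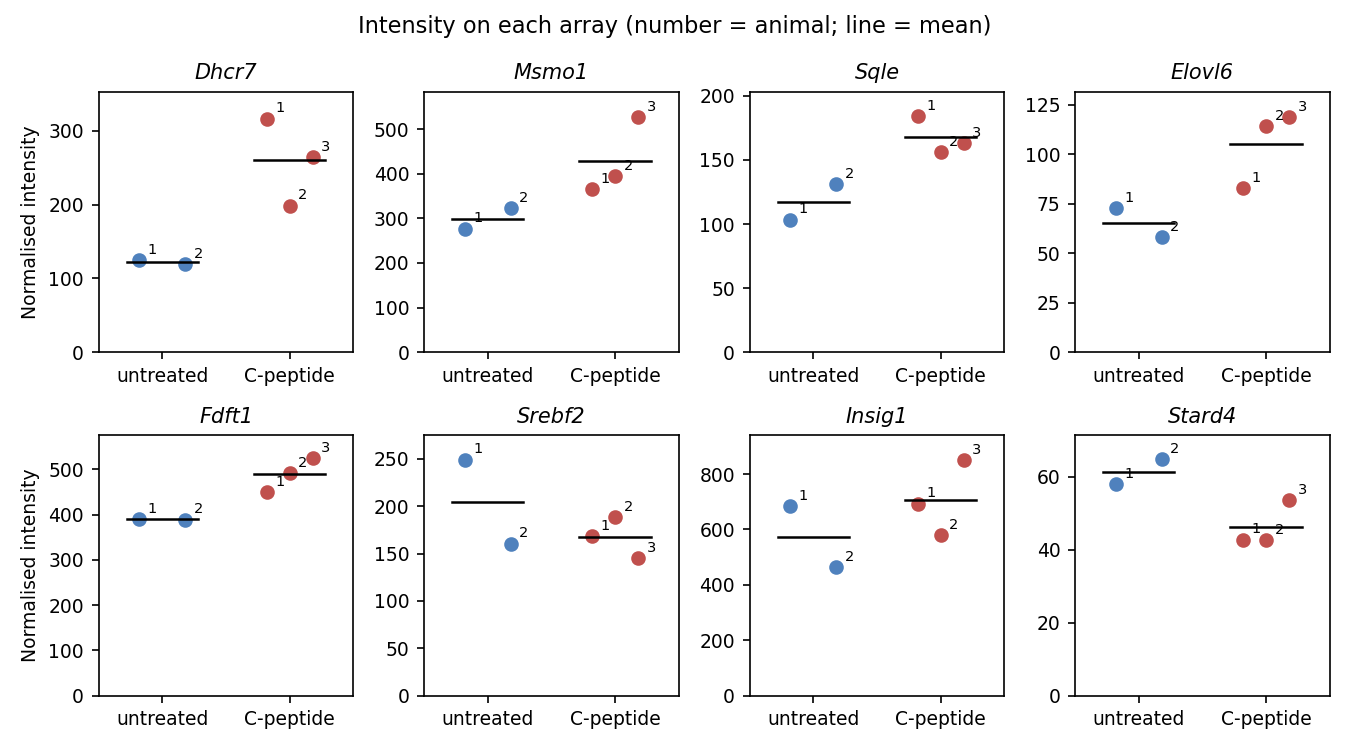
Normalised intensity (vertical axis, from 0) of 8 genes on each array, untreated in blue and C-peptide in red, with the animal number beside each point and a line at the group mean. Dhcr7, Msmo1, Sqle, Elovl6 and Fdft1 are higher on all 3 C-peptide arrays than on both untreated arrays, Stard4 is lower on all 3, and the groups overlap for Srebf2 and Insig1.

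Msmo1, which removes the methyl groups of lanosterol derivatives, was at 366, 394 and 528 with C-peptide and at 277 and 322 without. The groups did not overlap, and C-peptide animal 3 lay well above the rest. The log2 difference was 0.48 ± 0.19 (unadjusted p = 0.0374 and adjusted p = 0.411 in limma). Without C-peptide animal 3 it was 0.33, at an unadjusted p of 0.0948. The p was 0.0519 when C-peptide animal 2 was left out, and leaving out an untreated array gave 0.188 for animal 1 and 0.0626 for animal 2.

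The other enzymes between lanosterol and cholesterol had differences from 0.12 to 0.29, none past unadjusted p 0.05. Cyp51, the lanosterol demethylase, was at 188, 205 and 252 with C-peptide and at 151 and 196 without (0.29 ± 0.18), and the groups overlapped. Tm7sf2, a sterol reductase, was at 150.4, 133 and 137 against 122 and 107 (0.26 ± 0.14). Its groups did not overlap, although the lowest treated and the highest untreated array were close. Nsdhl, a sterol dehydrogenase of the demethylation step, was at 213, 242 and 228 against 213 and 196 (0.15 ± 0.14), so that the lowest treated array exceeded the highest untreated array by less than 1 unit of intensity. Hsd17b7, which reduces the keto group left by that step, was at 158, 146 and 152 against 131 and 135 (0.17 ± 0.13), again without overlap. Ebp, the sterol isomerase, was at 189 on the array of C-peptide animal 1 and between 84.4 and 131 on the other 4 arrays (0.28 ± 0.27). Sc5d, the desaturase before the last reduction, had a difference of 0.12 ± 0.15 with overlap. All 8 genes of this stretch, Dhcr7 included, had their highest value on a C-peptide array and their lowest on an untreated array.

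Sqle, the squalene epoxidase that commits squalene to sterols, was at 184, 156 and 163 with C-peptide and at 103 and 131 without. No treated array came down to an untreated one, and untreated animal 1 was the lowest of the 5. The log2 difference was 0.47 ± 0.16, or 1.38-fold, with an unadjusted p of 0.0211 and an adjusted p of 0.349 in limma. It was 0.31 without untreated animal 1, at an unadjusted p of 0.161. Fdft1, the squalene synthase one step before it, was at 449.8, 491 and 525 against 389.9 and 389 (0.31 ± 0.14, unadjusted p = 0.0609, limma). The untreated arrays of Fdft1 were nearly equal and every treated array lay above them. Lss, which closes the sterol rings, had a difference of 0.08 ± 0.15, with overlapping groups.

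The mevalonate enzymes showed smaller and more mixed differences, from -0.27 to 0.32, and none passed unadjusted p 0.05. Acat2, a cytosolic thiolase that joins acetyl-CoA units, was at 194, 131 and 139 with C-peptide against 119.8 and 117 (0.32 ± 0.19), and C-peptide animal 1 carried much of that difference. It was the only gene of the 6 whose groups did not overlap. Idi1, the isopentenyl diphosphate isomerase, was at 223, 229 and 284 against 159.7 and 239 (0.30 ± 0.20), with the 2 untreated arrays far apart. Mvd, the mevalonate diphosphate decarboxylase, was split in the same way, at 93.5 on the array of untreated animal 1 and at 139.6 on that of untreated animal 2, for a difference of 0.20 ± 0.20. Without untreated animal 1 that difference was -0.058. Fdps, the farnesyl diphosphate synthase, had a difference of 0.12 ± 0.15 and Mvk, the mevalonate kinase, 0.03 ± 0.16. Pmvk, the phosphomevalonate kinase, was dim and had a difference of -0.27 ± 0.20, with 46.4 on the array of C-peptide animal 1 and 69.5 to 82.8 on the others.

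**Figure D2:**
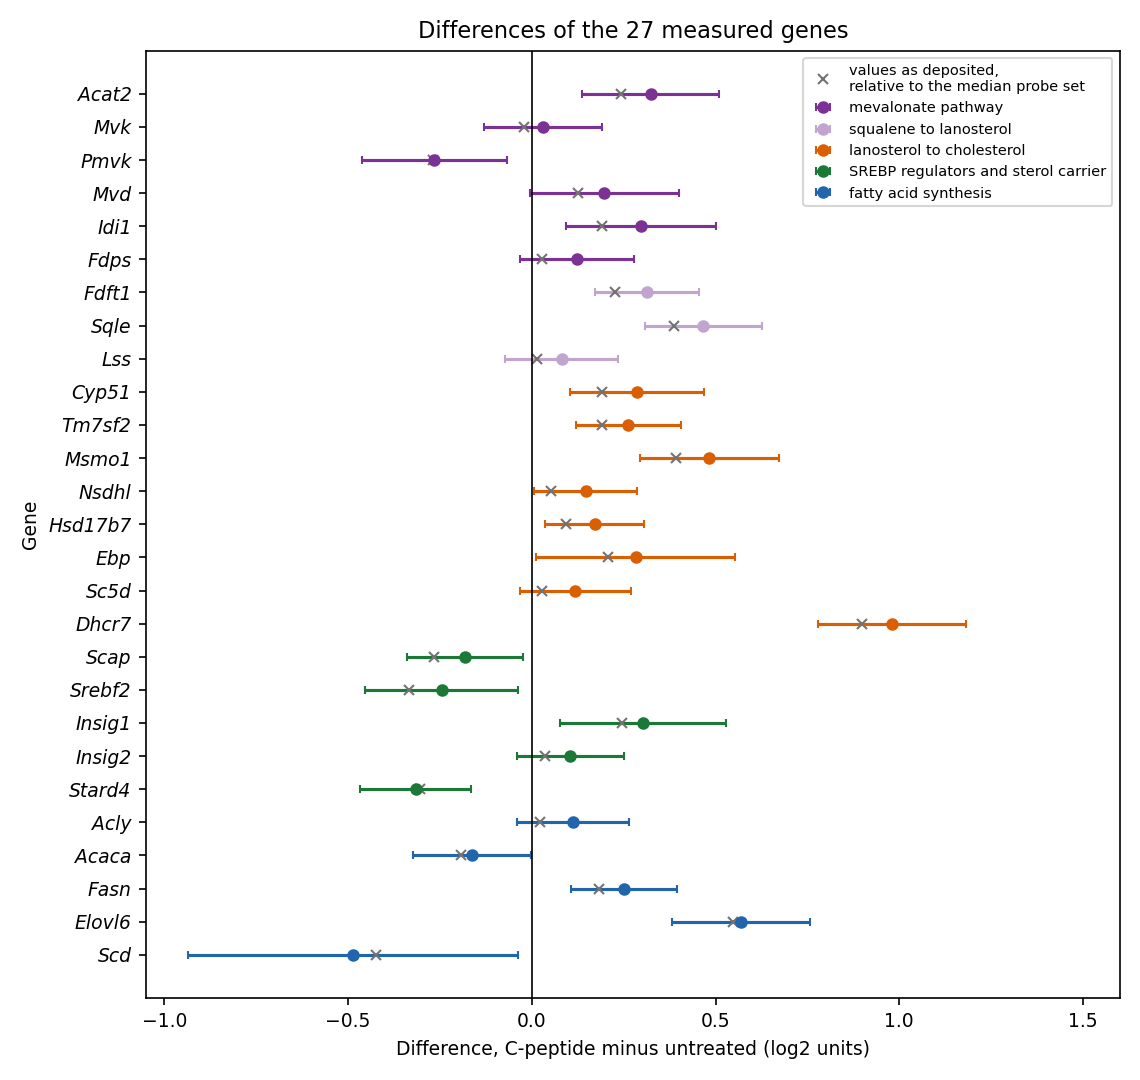
Difference between C-peptide and untreated cells in log2 units (horizontal axis) for each of the 27 measured genes (vertical axis, in pathway order), with bars for the standard error and crosses for the values as deposited relative to the median probe set. Dhcr7 stands apart at 0.98, 16 of the 17 cholesterol enzymes lie to the right of 0, and Scap, Srebf2 and Stard4 lie to the left.

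Of the 5 measured regulators and carriers, Insig1 and Insig2 had differences above 0 and Srebf2, Scap and Stard4 below, and none was past unadjusted p 0.05. Srebf2 was at 168, 189 and 145 with C-peptide and at 249 and 161 without, so that untreated animal 1 alone stood high and the other 4 arrays overlapped. Its log2 difference was -0.25 ± 0.21 with a 95% interval from -0.74 to 0.25, and it was 0.048 without untreated animal 1. Scap followed the same arrays, at 158, 179 and 155 against 211 and 167 (-0.18 ± 0.16, interval -0.55 to 0.19). Neither was past unadjusted p 0.05 in limma over the 5 arrays, and the intervals hold both a decrease and an increase.

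Insig1, which retains Scap in the endoplasmic reticulum and is itself a sterol-regulated gene, was at 693, 579 and 850.2 with C-peptide against 683 and 465. The groups overlapped, with C-peptide animal 3 highest and untreated animal 2 lowest, and the difference was 0.30 ± 0.23. A second probe set of Insig1 had a difference of 0.07 ± 0.21, and it was the only gene of the 27 with more than 1 probe set. Insig2, its relative, was at 132, 113 and 139 against 116 and 119 (0.10 ± 0.15). Stard4, a sterol carrier of the cytosol and a target of the same factors, was at 42.7, 42.5 and 53.6 against 57.9 and 64.9. All 3 treated arrays lay below both untreated arrays at this low intensity (-0.32 ± 0.15, unadjusted p = 0.0739, limma), and without C-peptide animal 3 the unadjusted p was 0.0454.

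In the fatty acid branch Elovl6, the elongase that takes palmitate to stearate, was at 82.7, 114 and 119 with C-peptide and at 72.6 and 57.9 without. The groups did not overlap, although C-peptide animal 1 was close to untreated animal 1. The log2 difference was 0.57 ± 0.19, or 1.48-fold (unadjusted p = 0.0179 and adjusted p = 0.333 in limma), the second in size after Dhcr7 among the 27 genes, and it ran from 0.43 without untreated animal 2 to 0.73 without C-peptide animal 1. Its unadjusted p was 0.126 with untreated animal 2 left out, and 0.0556 or 0.0544 with C-peptide animal 2 or 3 left out. Fasn, the fatty acid synthase, was at 140.2, 120.1 and 138 against 113 and 105 (0.25 ± 0.14), without overlap and not past unadjusted p 0.05. Acly, which splits citrate to supply cytosolic acetyl-CoA, had a difference of 0.11 ± 0.15 with overlap. Acaca, the acetyl-CoA carboxylase that makes malonyl-CoA, was at 65.0, 87.1 and 84.7 against 89.1 and 90.1 (-0.16 ± 0.16). Its treated arrays all lay below the untreated ones, by little in C-peptide animals 2 and 3. Scd, the stearoyl-CoA desaturase, was at 52.4 on the array of untreated animal 1 and between 4.55 and 14.0 on the other 4 arrays, so that 1 array set its difference of -0.49 ± 0.45, which was 0.38 without that array. The median of these 5 genes was 0.11.

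Over the 27 genes, 4 were higher at unadjusted p 0.05 (14.8%) and 0 lower, where 5.94% of all 14506 genes were higher and 7.12% lower. Groups did not overlap in 12 of the 27, 10 higher and 2 lower, where 18.7% of all genes were higher and 14.9% lower without overlap. The 10 higher genes were 37.0% of the 27, and the 2 lower were Stard4 and Acaca. The median difference was 0.17, and 0.09 as deposited relative to the median probe set. With the values as deposited Dhcr7 alone was past unadjusted p 0.05 in limma. That fit did not centre the arrays, so its p-values test differences that still hold the median of -0.13 over all probe sets. The share of all genes past unadjusted p 0.05 on that scale was not counted. After centring each array on its median, 3 of the 27 were higher. As deposited, the groups of 1 gene were higher and of 2 lower without overlap, beside 4.09% and 17.5% of all genes. Leaving out C-peptide animal 2 or 3 turned the count of 4 into 2 (Dhcr7 and Sqle in either case), and leaving out untreated animal 1 did so too (Dhcr7 and Elovl6). It was 5 without C-peptide animal 1, with Fdft1 added. The count of lower genes was 1 without C-peptide animal 3 (Stard4) and 2 without untreated animal 2 (Srebf2 and Scd).

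**Figure D3:**
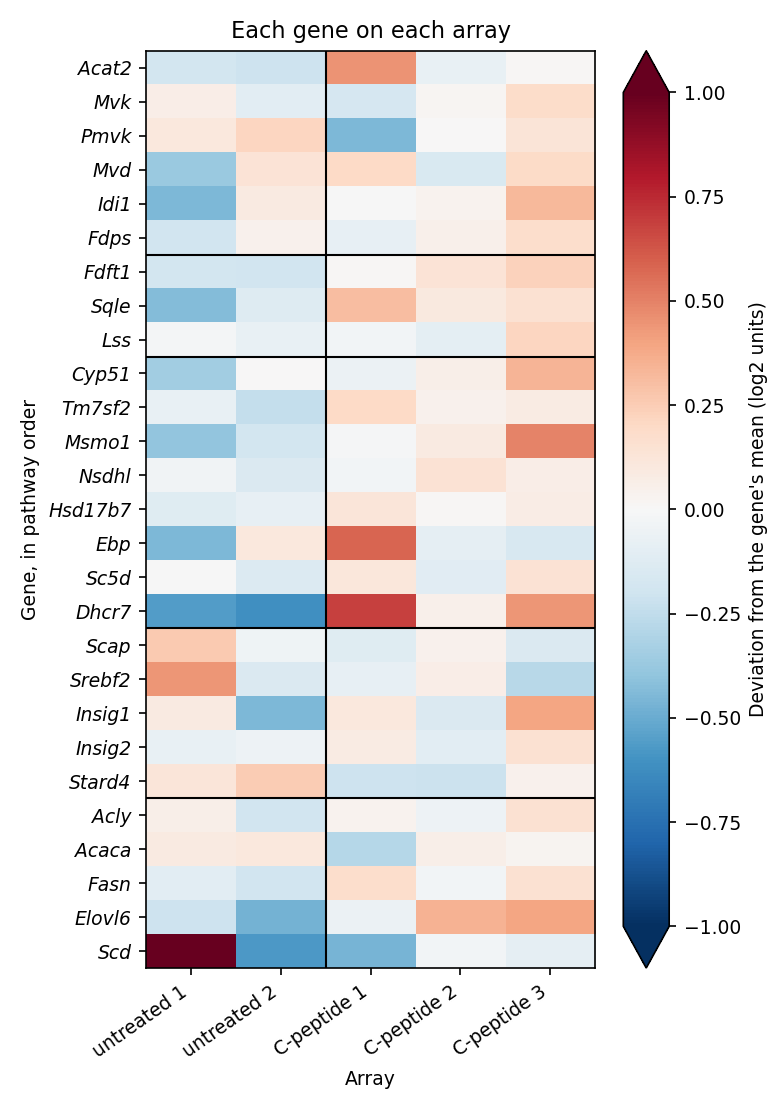
Deviation of each gene (rows, in pathway order, lines between groups) on each array (columns) from its own mean over the 5 arrays, in log2 units, red above and blue below the mean, with the scale ending at 1 unit. The array of C-peptide animal 3 is above the gene's mean in 23 of the 27 genes, and the dark cell of Scd is the array of untreated animal 1.

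The treated arrays did not carry these genes equally. C-peptide animal 3 had the highest value of the 5 arrays in 12 of the 27 genes. C-peptide animal 1 did so in 8 and C-peptide animal 2 in 1. A C-peptide array was thus highest in 77.8% of the 27, beside 64.5% of all genes, whose shares by single array were not counted. The 14 proximal tubule markers were also highest in C-peptide animal 3, except Slc5a2 and Slc7a9 (animal 1) and Aqp1 (animal 2). Any link between these array patterns was not tested. The median deviation of the 27 genes from their own means was 0.15 on the array of C-peptide animal 3, 0.02 on that of animal 2 and -0.0025 on that of animal 1. In untreated animal 1 it was -0.08, and in untreated animal 2 it was -0.13. Dhcr7, Sqle, Acat2 and Ebp were highest in C-peptide animal 1, and Msmo1, Idi1, Cyp51, Insig1 and Elovl6 in animal 3. The standard deviation between arrays of a group, as a median over the 27 genes, was 0.17 with C-peptide and 0.12 without, beside 0.17 and 0.11 over all genes.

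Markers of cell types that the preparation could hold differed over the same contrast. The 14 proximal tubule markers summed to 24446 to 32219 on the C-peptide arrays and to 17153 to 20550 on the untreated arrays, and 10 of them were higher at unadjusted p 0.05 in limma, with a median difference of 0.58. The 11 measured endothelial markers summed to 8655 to 13615 with C-peptide and 20920 to 24626 without, and 10 were lower at unadjusted p 0.05, with a median of -1.17. Of the 10 immune markers 6 were lower, with a median of -0.48 and summed levels of 4889 to 6664 against 6978 to 8267. No marker of these lists or of those below was at 0 on any array, which does not tell which cells were present. Fewer cells of a type and less RNA per cell cannot be told apart in these samples. The part of these shifts in the differences of the 27 genes was not tested.

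Markers of 2 other tissues that make or store much lipid were also read. For adipocytes the median was 0.20 over 7 genes, with 6 differences above 0 and 0 higher and 1 lower at unadjusted p 0.05. The lower gene was Lpl, the lipoprotein lipase (-1.13 ± 0.22), which tissues other than fat also express. Summed levels were 785 to 964 with C-peptide against 1082 to 1128 without. Lpl, at 215, 366 and 282 against 639 and 632, set the direction of that sum, against the other 6 genes. Adiponectin, encoded by Adipoq, was at 98.9, 117 and 139 with C-peptide against 91.1 and 88.0. For the adrenal cortex the median was -0.04 over 6 genes, with 0 in either direction and a summed level of 214 to 250 with C-peptide and 216 to 251 without. Podocyte markers had a median of -0.36 over 5 genes, 2 of them lower, Podxl (-1.32 ± 0.26) and Synpo (-0.65 ± 0.21). Of the others Ptpro was at -0.36 ± 0.16, Wt1 at -0.17 ± 0.24 and Nphs1 at 0.11 ± 0.14. Thick limb and distal tubule markers had a median of 0.06 over 6 genes, 1 of them, Slc12a3, higher (0.69 ± 0.23). The median was 0.22 over 6 collecting duct markers and 0.00 over 6 stromal and smooth muscle markers. A mean above that of the median probe set was reached by only 1 of the 6 adrenal markers. It was reached by 3 of the 7 adipocyte and 2 of the 5 podocyte markers. Low intensities therefore limit what these 3 lists show.

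Further genes of lipid synthesis and sterol handling were read from 5 lists, in which 61 of 74 genes were measured, and of these 8 (13.1%) were higher and 5 lower at unadjusted p 0.05, beside 5.94% and 7.12% of all genes. The list of further fatty acid synthesis, elongation and desaturation held 6 of the 8, and 1 of the 5. Me1, the malic enzyme that supplies NADPH for fatty acid synthesis, was at 333, 349 and 379 with C-peptide against 199.6 and 214 (0.73 ± 0.14, unadjusted p = 0.00112 and adjusted p = 0.138, limma). Acss2, which activates acetate in the cytosol, was at 1036, 904 and 996 against 637 and 518 (0.75 ± 0.16, unadjusted p = 0.00174, limma). Fads1, a desaturase of polyunsaturated fatty acids, was at 261, 161 and 225 against 133 and 123 (0.66 ± 0.21). In all 3 genes every treated array lay above both untreated arrays, also in the values as deposited, where the unadjusted p was 0.0931 for Me1, 0.0496 for Acss2 and 0.103 for Fads1. Adjusted p in the 3 settings with fewer features, in the order given for Dhcr7, was 0.0312, 0.0343 and 0.0336 for Me1 and 0.0381, 0.0406 and 0.0381 for Acss2. Picked after their values were seen, the acyl-CoA synthetases Acsl1, Acsl3 and Acsl4 were the rest of the higher genes (0.38, 0.45 and 0.39; as deposited their groups overlapped), and Elovl5, an elongase of polyunsaturated fatty acids, was the lower gene (-0.47 ± 0.15). The median of the 17 genes in the list was 0.24.

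Of the 15 measured genes of sterol export, uptake and esterification and their factors, 1 (6.67%) was higher and 2 lower at unadjusted p 0.05. Over all genes the shares were 5.94% and 7.12%. Differences lay above 0 in 26.7% of the 15, where 54.9% of all genes did. Mylip, a ubiquitin ligase and target of the liver X receptors, was at 119, 181 and 119 with C-peptide against 297 and 289.5, the largest difference of the 61 genes (-1.02 ± 0.20, unadjusted p = 0.00125 and adjusted p = 0.141, limma). In the same 3 settings its adjusted p was 0.0298, 0.0286 and 0.0267. Scarb1, the receptor for high-density lipoprotein, was at 75.1, 100.5 and 70.8 against 136 and 129 (-0.61 ± 0.17, unadjusted p = 0.00877, limma). On both genes C-peptide animal 2 was the highest of the treated arrays, as it was for all 11 measured endothelial markers. It was so too for the immune markers other than Cd3e and Itgam. The thick limb and distal tubule markers other than Pvalb also had it highest of the treated. Any link of the 2 genes to these markers was not tested. Without that array the differences were -1.20 for Mylip and -0.74 for Scarb1. Nr1h3, which encodes a liver X receptor, was at 175, 161 and 167 against 122 and 110.5 (0.47 ± 0.14, unadjusted p = 0.0101, limma), with no overlap. As deposited the groups of Nr1h3 overlapped, at an unadjusted p of 0.353. The median of the 15 genes of this list was -0.09.

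The other 3 lists, with 9, 10 and 10 measured genes, held 1 higher and 2 lower genes at unadjusted p 0.05. Triglyceride synthesis and lipid droplets held 1 higher and 1 lower among 10 genes. Further sterol and isoprenoid enzymes held 1 lower among 9. Over all genes 5.94% were higher and 7.12% lower, and in lists this short 1 gene sets the share. Among further sterol and isoprenoid enzymes Cyb5r3, a cytochrome b5 reductase, was lower at unadjusted p 0.05 (-0.65 ± 0.24), while Acat1, the mitochondrial thiolase, was at 0.27 ± 0.15 and Por, which passes electrons to Cyp51 and Sqle, at 0.31 ± 0.24. The median of those 9 genes was 0.03. Of the 10 genes of sterol sensing and factor processing none was past unadjusted p 0.05, with Erlin2 at 0.26 ± 0.15, Erlin1 at 0.21 ± 0.17 and Tmem97 at 0.14 ± 0.13. In triglyceride synthesis and lipid droplets Gpam, which starts glycerolipid synthesis, was at 277, 262 and 254 with C-peptide against 186 and 187 (0.47 ± 0.13, unadjusted p = 0.00940, limma), but as deposited its groups overlapped, at an unadjusted p of 0.383. Lipe, the hormone-sensitive lipase, was at 227, 185 and 200.2 against 317 and 269 (-0.49 ± 0.16, unadjusted p = 0.0163, limma), and Mgll, a monoglyceride lipase, at 0.32 ± 0.15.

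**Figure D4:**
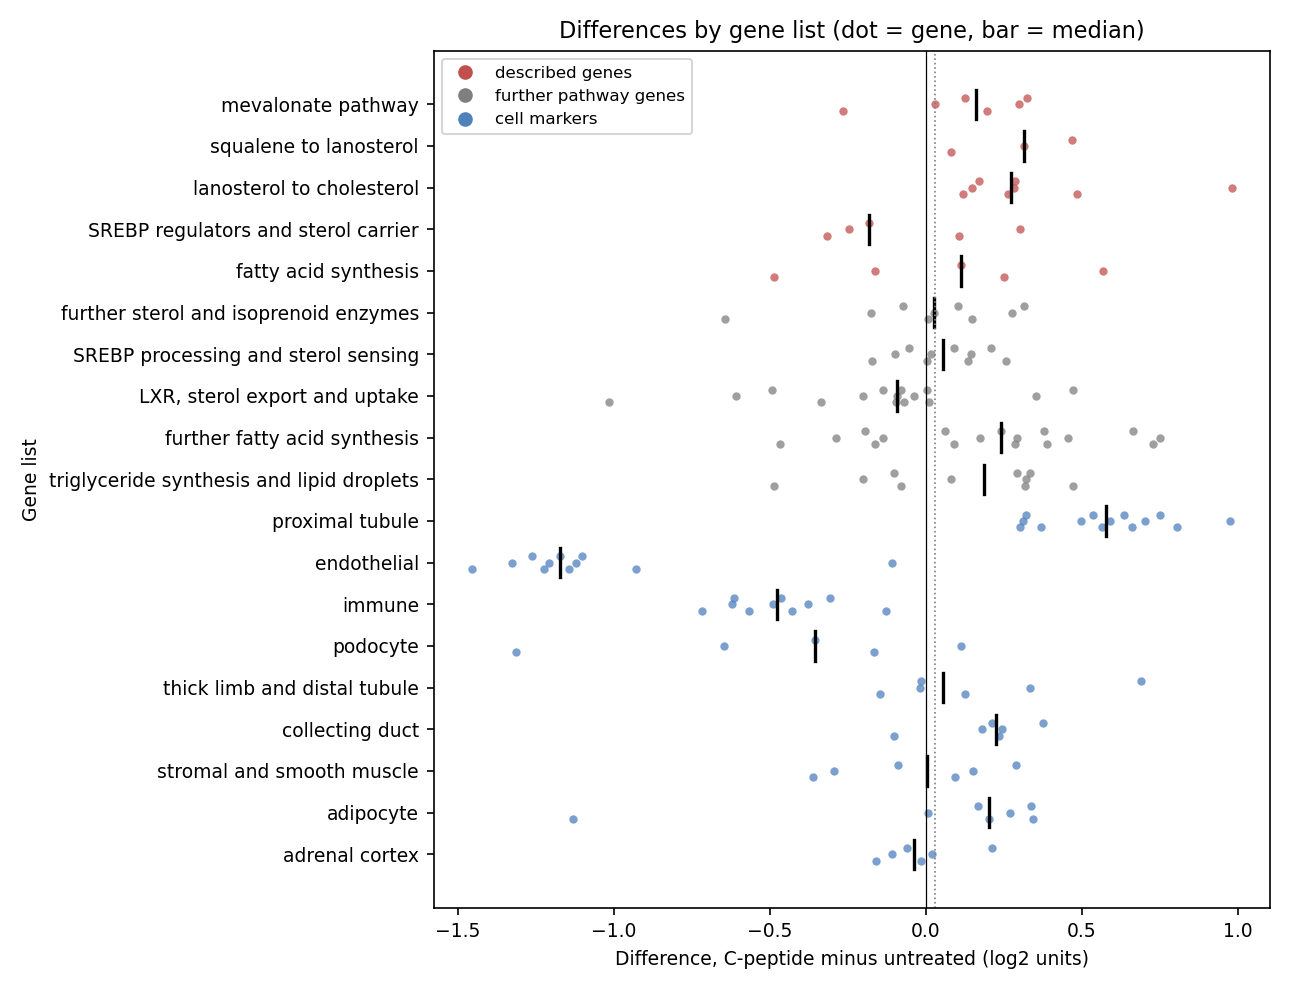
Difference between C-peptide and untreated cells in log2 units (horizontal axis) for each gene (dot) of each list (rows), with a bar at the list's median, a solid line at 0 and a dotted line at the median of all genes. Medians are 0.58 for proximal tubule markers and -1.17 for endothelial markers, and those of the 5 groups of synthesis genes and regulators lie from -0.18 to 0.31.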

How the data were processed

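Each deposited column was a linear intensity per probe set. The submitters' processing notes name Affymetrix Expression Console 1.1 and PLIER, and the sources used here give no background correction or scaling. It held 550 values of exactly 0, and every column belonged to a sample. Of 29215 probe sets, 15310 had a single symbol in the platform annotation, 323 several and 13582 none, and 15279 of the single-symbol probe sets were found in RefSeq (GRCr8), whose current symbol was used. Because array medians differed, arrays were quantile normalised, 16 was added and log2 taken. A two-sided limma 3.58.1 test (R 4.3.3; lmFit, then eBayes) with group as the only term was run on all probe sets, with Benjamini-Hochberg adjustment over them. The code was tested on simulated arrays. The members and lists were chosen with earlier results of these data known, so list counts are descriptions. All members are named, and of each further list the 3 genes with the smallest unadjusted p. Alternatives changed the normalisation, pseudocount, probe sets, variance model, block and arrays. Arrays give no depth, and their number limits the precision.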

Additional observations from a re-analysis of the deposited data

How the results depend on the processing

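The 4 genes higher at unadjusted p 0.05 were 1 with the values as deposited and 2 to 5 on leaving out each array in turn, while the count of lower genes was 0 to 2 and the count past adjusted p 0.05 stayed at 0 there. Leaving out an untreated array assumes that the remaining one varies like the treated arrays. The count past adjusted p 0.05 was 1 (Dhcr7) in 3 settings. These kept only probe sets above the median, kept only 1-symbol probe sets, or averaged probe sets per gene. Fewer features were tested there, and the fit was redone on them. The 8 higher pathway genes were 1 (Acss2) as deposited, 5 after centring each array on its median and 3 to 8 on leaving out arrays, and the 5 lower ones were 2 to 5. The median difference of 0.17 ran from 0.14 to 0.20 on leaving out arrays. The unadjusted p of Dhcr7 was under 0.05 in all 15 alternatives.

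The labels do not say whether animal numbers pair the samples, and no sign of pairing was seen: deviations from the group means correlated at -0.09 for animals numbered 1 and -0.06 for those numbered 2, over probe sets above the median, but only 2 numbers are shared, and the deviations of 2 untreated arrays are exact opposites. With the replicate block 1 gene was higher, 5 pathway genes were higher and 3 lower, Mvk was at -0.054 and Lss at -0.012. As deposited and relative to the median probe set, Mvk was at -0.022. On leaving out arrays the range crossed 0 for Mvk (-0.054 to 0.12), Lss (-0.012 to 0.14), Mvd (-0.058 to 0.45), Acly (-0.013 to 0.24), Srebf2 (-0.53 to 0.048) and Scd (-1.35 to 0.38). For all these changes the cause was not tested, and the other genes among the 42 run (the 27 and the 15 pathway genes named by rule) kept their direction. Acsl1, Acsl3, Acsl4, Elovl5, Plin2 and Scd2 were not run under the alternatives other than the values as deposited. Precision is limited by 3 against 2 arrays.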

Other observations

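Chosen after its value was seen, Plin2, which coats lipid droplets, was at 978 on the array of C-peptide animal 1 and between 531 and 598 on the other 4 arrays, for a log2 difference of 0.33 ± 0.24. Scd2, a second desaturase gene, was at 131, 176 and 125 with C-peptide and at 167 and 156 without (-0.16 ± 0.18), with no array standing apart in the way that untreated animal 1 did for Scd.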
